A study of Mus musculus with 9 samples.

Results

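The interferon-inducible chemokines Ccl5, Cxcl9, Cxcl10 and Cxcl11 were followed in mouse peritoneal macrophages given bacterial lipopolysaccharide (LPS). All probe sets that the platform annotation assigns to these 4 symbols were taken, which gave 4 of 12394 named genes and 5 of 22690 probe sets: 1 each for Ccl5 (1418126_at), Cxcl9 (1418652_at) and Cxcl10 (1418930_at) and 2 for Cxcl11 (1419697_at and 1419698_at). MyD88 KO, TRIF KO and wild-type macrophages, drawn from the peritoneal cavity after thioglycollate injection, were compared unstimulated (0 h) and after 1 h and 4 h with LPS at 100 ng/ml. Each of these 9 groups had 1 array. The labels give no strain background, age, number of animals or further detail of the alleles. LPS is sensed by Toll-like receptor 4, which signals through the adaptors MyD88 and TRIF, and the design asks which responses need which adaptor.

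CCL5, also called RANTES, attracts T cells, monocytes and eosinophils through receptors that include CCR1 and CCR3. CXCL9, CXCL10 and CXCL11 share the receptor CXCR3, found mainly on activated T cells and natural killer cells. In macrophages, TRIF is known to activate the kinases TBK1 and IKK-epsilon and, through them, the factor IRF3, which switches on interferon beta. Interferon beta then acts back on the cells through its receptor and a complex that holds STAT2 and IRF9, while both adaptors activate NF-kB. Cxcl9 is known as a gene driven chiefly by interferon gamma.

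Values are log2 levels after robust multi-array averaging (RMA) by the authors, and a difference of 1 is a 2-fold change. Array medians lay between 7.01 and 7.07. The analysis kept 10032 of the named genes, those with log2 = 6 or more somewhere among the arrays. Ccl5, Cxcl9 and Cxcl10 passed that limit and Cxcl11 did not. Before LPS, MyD88 KO and wild type lay within 0.66 of each other for 99% of genes, and TRIF KO and wild type within 0.47. Myd88 itself had log2 levels at 0, 1 and 4 h of 9.30, 9.19 and 9.34 on MyD88 KO arrays, 9.56, 9.54 and 9.96 on TRIF KO arrays, and 9.57, 9.58 and 10.002 on wild-type arrays. No source places its single probe set relative to the deletion, so this may not test the labels, and the TRIF gene Ticam1 was not analysed here. The 8 macrophage markers were all analysed, with summed linear levels of 52225 to 53955 in MyD88 KO, 55080.1 to 57256 in TRIF KO and 54406 to 57015 in wild type.

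A difference between 2 single arrays has no replicate check, and precision is limited by there being 9 arrays. Tests came from limma fits across all 10032 genes, two-sided, with Benjamini-Hochberg adjustment and a threshold of 0.05. The additive fit used the 3 genotypes as replicates of a time. The genotype-specific fit used the 0 h and 1 h arrays of a genotype as its 2 early arrays, set the 4 h array against their mean, and assumed that the lone 4 h array varies as they do. The labels do not say whether the 3 arrays of a genotype stem from different mice or cultures. The p-values therefore reflect only how far these arrays scatter, and that scatter may be technical. In the additive fit it also holds any difference in time course between genotypes. In the genotype-specific fit it also holds the change from 0 h to 1 h. A gene that was not called is thus not shown to be unchanged.

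Ccl5, the T cell and monocyte attractant, responded less at 4 h in both knockouts than in wild type, and least in TRIF KO. Its log2 levels at 0, 1 and 4 h were 7.60, 7.71 and 9.63 on the MyD88 KO arrays. On the TRIF KO arrays it read 7.11, 7.14 and 7.56, and on the wild-type arrays 7.68, 7.71 and 11.48. The 4 h arrays of MyD88 KO and wild type thus stood above all the others, and the 4 h array of TRIF KO stayed below the unstimulated array of wild type.

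Ccl5 induction, the level at 4 h minus that at 0 h, was 2.03 in MyD88 KO, 0.46 in TRIF KO and 3.80 in wild type, or 4.08-fold, 1.37-fold and 13.9-fold. Among the 10032 genes this ranked 11 from the top in MyD88 KO, 190 in TRIF KO and 2 in wild type. At 1 h Ccl5 differed from the unstimulated level by 0.11, 0.03 and 0.02 in the same order, and the additive fit did not call it (limma, 0.05 ± 0.45, adjusted p = 0.993). The level reached at 4 h was 3.61-fold lower in MyD88 KO than in wild type and 15.1-fold lower in TRIF KO than in wild type. The difference in TRIF KO, -3.92, was the lowest of all 10032 genes.

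In the genotype-specific fit Ccl5 rose at 4 h by 1.97 ± 0.11 in MyD88 KO (SE; limma, Benjamini-Hochberg adjusted p = 5.51e-07), by 0.44 ± 0.11 in TRIF KO (adjusted p = 0.0455) and by 3.79 ± 0.11 in wild type (adjusted p = 1.35e-10). The response in MyD88 KO was below that in wild type by -1.82 ± 0.15 (limma, adjusted p = 7.29e-05, 95% interval -2.14 to -1.49). That in TRIF KO differed from wild type by -3.35 ± 0.15 (limma, adjusted p = 6.29e-08). MyD88 KO stood above TRIF KO by 1.53 ± 0.15 (limma, adjusted p = 0.00113). The response in TRIF KO lies close to the threshold, and it passed with 2 of the 6 early arrays left out in turn but not with the other 4 (limma, adjusted p = 0.0358 to 0.235) or after centring the arrays on reference transcripts (limma, adjusted p = 0.0578).

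Ccl5 read lower on the TRIF KO arrays already at 0 h and 1 h. Its difference from wild type was -0.57 at 0 h and -0.57 at 1 h, and 0.618% of genes differed more at 0 h. For MyD88 KO against wild type the same differences were -0.08 and 0.01. Fewer cells of a type and less RNA per cell cannot be told apart in such bulk samples. Ccl5 is also made by T and NK cells, of whose 12 listed markers 10 were measured and 7 analysed. The summed linear level of the 10 was 959.5 to 976.3 in MyD88 KO, 919 to 976.6 in TRIF KO and 953 to 1032 in wild type, with Cd3g, Cd8a and Gzma below log2 = 6 on every array. Of the 7 analysed, 5 read lower and 2 higher in unstimulated TRIF KO than in unstimulated wild type. The differences ran from -0.26 to 0.15, with a median of -0.12 against 0.0017 over all genes. That median is the value of Nkg7, which reached log2 = 6 only on the 4 h wild-type array (6.04). Nkg7 read 5.74 to 5.96 on the others, so it entered the analysis only through an array where it is high. The part of T and NK cells in the Ccl5 differences was not tested.

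**Figure D1:**
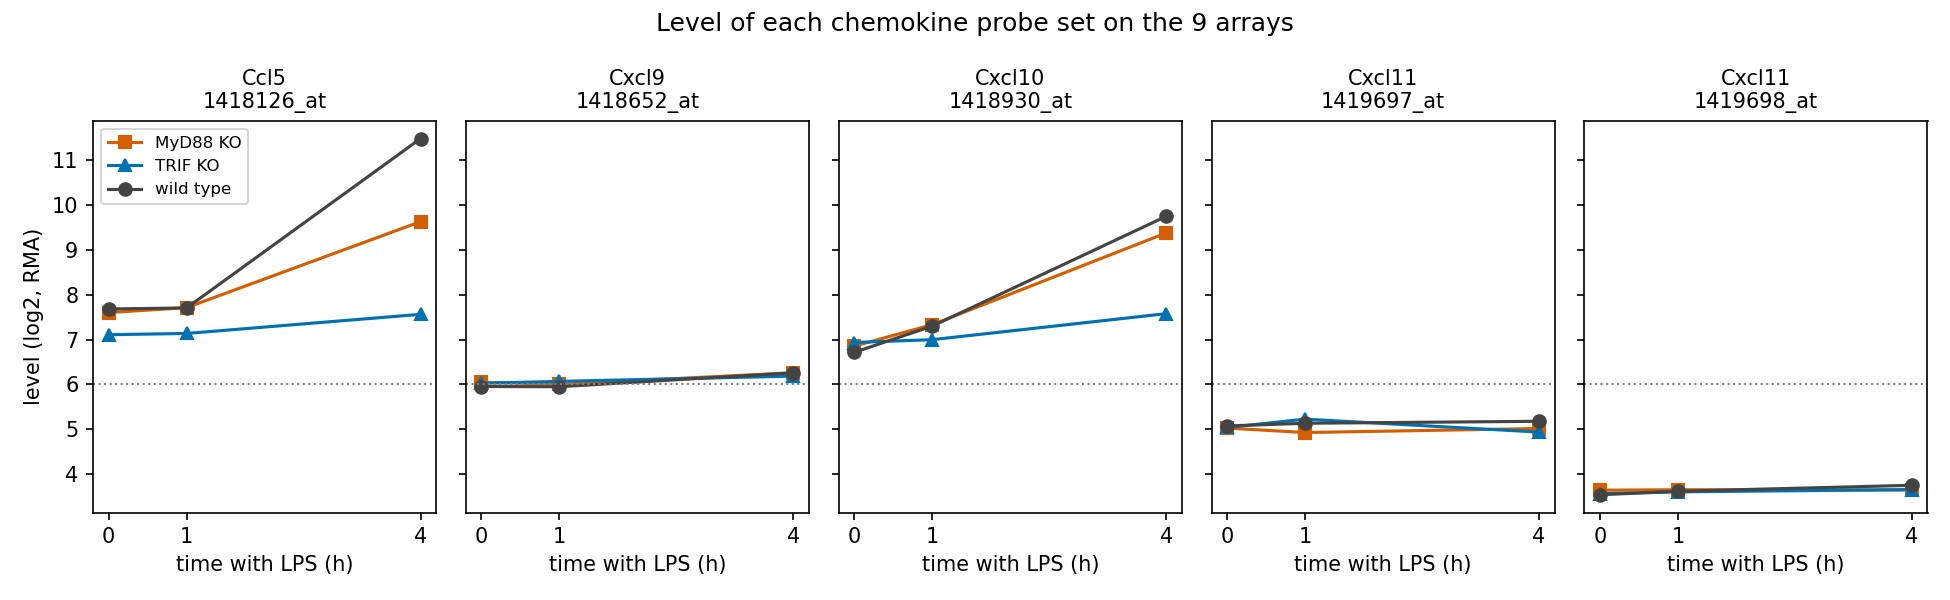
Level (log2, RMA) of the 5 chemokine probe sets against time with LPS (h), 1 array per point, lines joining the arrays of a genotype; the dotted line is the limit of log2 = 6. Ccl5 and Cxcl10 reach 9.63 and 9.38 in MyD88 KO and 11.48 and 9.75 in wild type at 4 h, while both stay under 7.6 in TRIF KO, and Cxcl11 lies below the limit throughout.

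Cxcl10, a CXCR3 ligand, rose at 4 h in MyD88 KO and in wild type, and its response in TRIF KO was lower than in wild type. Its log2 levels at 0, 1 and 4 h were 6.85, 7.33 and 9.38 in MyD88 KO, then 6.93, 6.9975 and 7.58 in TRIF KO, and 6.72, 7.30 and 9.75 in wild type. MyD88 KO and wild type lay within 0.37 of each other at all 3 times, and TRIF KO was below both at 4 h. Induction at 4 h was 2.53, 0.64 and 3.03 in MyD88 KO, TRIF KO and wild type, or 5.76-fold, 1.56-fold and 8.19-fold, with ranks of 4, 101 and 6 among the 10032 genes.

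At 4 h the level of Cxcl10 was 1.29-fold lower in MyD88 KO than in wild type and 4.51-fold lower in TRIF KO than in wild type. Unlike Ccl5, Cxcl10 had a small difference at 1 h in MyD88 KO (0.48) and in wild type (0.59), against 0.06 in TRIF KO. These ranked 40, 50 and 3108 among all genes in the order MyD88 KO, wild type and TRIF KO. The additive fit did not call Cxcl10 at 1 h (limma, effect 0.38 ± 0.31, adjusted p = 0.905).

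The genotype-specific fit gave a 4 h rise of Cxcl10 by 2.29 ± 0.21 in MyD88 KO (limma, adjusted p = 3.59e-05) and 2.74 ± 0.21 in wild type (adjusted p = 2.025e-06). In TRIF KO the value was 0.61 ± 0.21 and did not pass (limma, adjusted p = 0.200). The response in TRIF KO was below that in wild type by -2.13 ± 0.29 (limma, adjusted p = 0.00469). For MyD88 KO against wild type the difference was -0.46 ± 0.29 (limma, adjusted p = 0.9225). Its 95% interval of -1.09 to 0.18 leaves room for a loss of about 2-fold, so the test does not show that the responses were alike. MyD88 KO minus TRIF KO was 1.67 ± 0.29 and narrowly missed the threshold (limma, adjusted p = 0.0509), although by induction over 0 h this difference (1.88) was the highest positive one among the 10032 genes. With all values below log2 = 6 raised to 6, the fit no longer called Cxcl10 in MyD88 KO (limma, adjusted p = 0.0876) or in TRIF KO against wild type (adjusted p = 0.764), nor Ccl5 in MyD88 KO against TRIF KO (adjusted p = 0.0621), though the estimates were unchanged.

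Cxcl9, which also signals through CXCR3, stayed near the limit of log2 = 6. At 0, 1 and 4 h it read 6.05, 6.001 and 6.26 in MyD88 KO, against 6.02, 6.07 and 6.18 in TRIF KO and 5.95, 5.95 and 6.26 in wild type. Each 4 h array was above both earlier arrays of its genotype, by 0.12 to 0.31. The additive fit called this small rise (limma, 0.23 ± 0.06, adjusted p = 0.0404, higher at 4 h in 3 of 3 genotypes), but leaving out any of 8 of the 9 arrays ended the call (limma, adjusted p up to 0.216). The genotype-specific fit called it in none of the genotypes, with 0.23 in MyD88 KO, 0.14 in TRIF KO and 0.31 in wild type (limma, adjusted p = 0.554, 0.786 and 0.0923).

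Cxcl11 was not analysed across genes, since both its probe sets stayed below the limit on all arrays. Probe set 1419697_at read 5.02, 4.92 and 5.01 in MyD88 KO, against 5.04, 5.22 and 4.93 in TRIF KO and 5.07, 5.13 and 5.18 in wild type. Probe set 1419698_at ranged from 3.54 to 3.75. Induction at 4 h lay between -0.10 and 0.21 over both probe sets and the 3 genotypes. RefSeq lists Cxcl11 as a transcribed pseudogene in the C57BL/6J assembly GRCm38.p6, and the labels do not name the strain of these mice.

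Counted against the background, 2 of the 3 analysed chemokines, Ccl5 and Cxcl10, were at least 2-fold higher at 4 h in MyD88 KO, where 0.429% of all genes were. In TRIF KO 0 of 3 were (0.409% of all genes), and in wild type 2 of 3 (1.23%). At 1 h the count was 0 of 3 in each genotype, beside 0.0698% of genes in MyD88 KO, 0.14% in TRIF KO and 0.239% in wild type. At 4 h Ccl5 was at least 2-fold lower in MyD88 KO than in wild type (0.558% of genes), and Ccl5 and Cxcl10 were in TRIF KO (0.349%). Both were at least 2-fold higher in MyD88 KO than in TRIF KO (0.259%).

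By the tests, all 3 rose at 4 h in the additive fit, which called 4.62% of genes higher, and 0 of 3 at 1 h (0.289%). The effects of Ccl5 and Cxcl10 at 4 h were 2.10 ± 0.45 and 2.07 ± 0.31 (limma, adjusted p = 0.00953 and 0.00098). Without the unstimulated wild-type array Ccl5 missed the threshold, with an effect of 1.68 (limma, adjusted p = 0.0713). Averaged over the 3 times, 0 of 3 were lower in MyD88 KO (2.68% of genes) and 0 of 3 in TRIF KO (0.419%), where Ccl5 stood at -1.69 (limma, adjusted p = 0.106). In the genotype-specific fit 2 of 3 rose in MyD88 KO (1.37% of genes called higher), 1 of 3 in TRIF KO (1.29%) and 2 of 3 in wild type (3.98%). The response was lower than in wild type for 1 of 3 in MyD88 KO (0.269%) and 2 of 3 in TRIF KO (0.189%), and higher in MyD88 KO than in TRIF KO for 1 of 3 (0.11%). The wild-type arrays are shared by the comparisons of both knockouts.

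**Figure D2:**
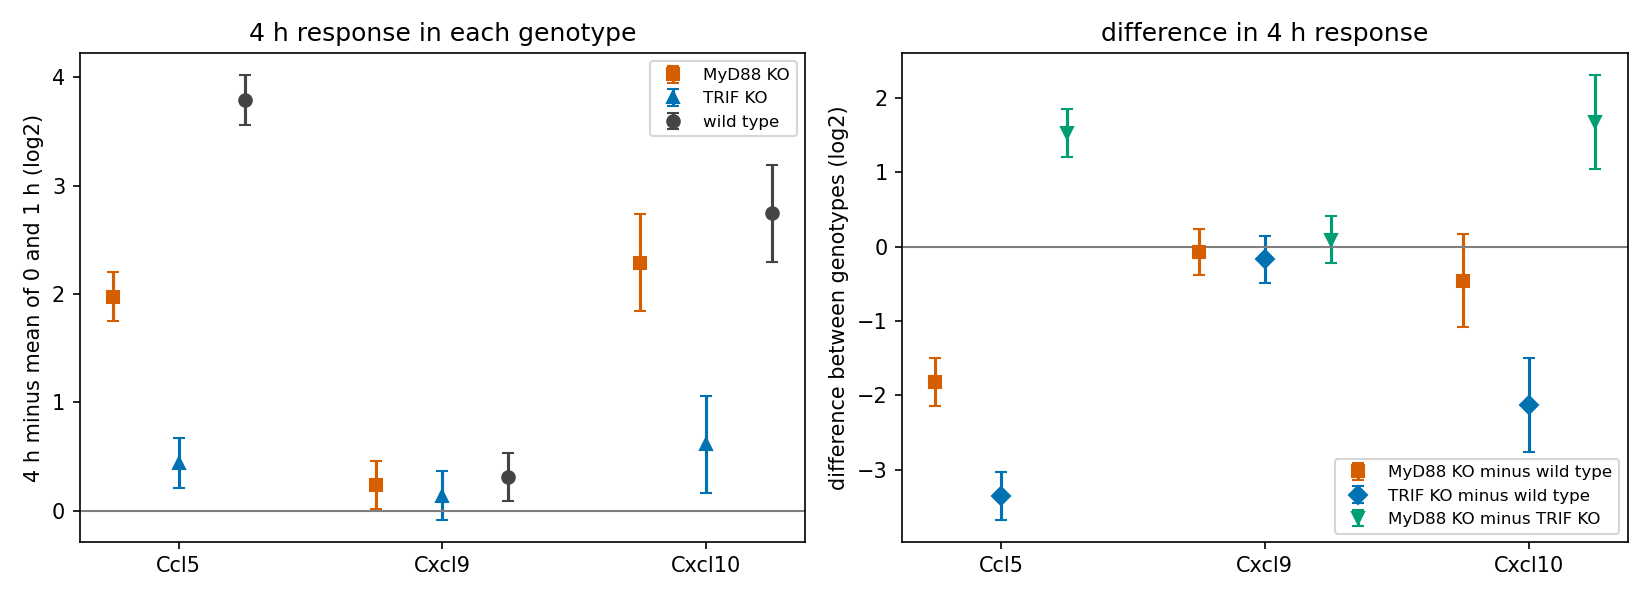
Response at 4 h (4 h minus the mean of 0 and 1 h, log2) of the 3 analysed chemokines in each genotype (left) and its difference between genotypes (right); points are limma estimates and bars 95% intervals. Ccl5 is ordered 0.44, 1.97 and 3.79 in TRIF KO, MyD88 KO and wild type, while the intervals of Cxcl10 in MyD88 KO and wild type overlap.

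Promoter windows from RefSeq, assembly GRCm38.p6, were in the table used here for Cxcl9 and Cxcl10, which are neighbours on chromosome 5 and differed in response. They run from 250 bases before to 50 after the annotated start and are shown 5′ to 3′ on the gene's strand. Capitals mark matches to the motifs searched on both strands: the interferon-stimulated response element (ISRE) core, which is GAAA, any 2 bases and GAAA, the NF-kB consensus, the STAT site TTCNNNGAA and the AP-1 site TGANTCA.
Cxcl10, chr5:92348840-92349139, minus strand: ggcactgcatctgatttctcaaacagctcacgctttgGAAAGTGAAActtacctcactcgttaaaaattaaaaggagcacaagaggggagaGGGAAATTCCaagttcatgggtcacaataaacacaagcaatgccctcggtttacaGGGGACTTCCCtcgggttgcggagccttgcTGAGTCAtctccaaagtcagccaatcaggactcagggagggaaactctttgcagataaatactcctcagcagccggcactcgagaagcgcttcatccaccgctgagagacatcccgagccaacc
Cxcl9, chr5:92328030-92328329, minus strand: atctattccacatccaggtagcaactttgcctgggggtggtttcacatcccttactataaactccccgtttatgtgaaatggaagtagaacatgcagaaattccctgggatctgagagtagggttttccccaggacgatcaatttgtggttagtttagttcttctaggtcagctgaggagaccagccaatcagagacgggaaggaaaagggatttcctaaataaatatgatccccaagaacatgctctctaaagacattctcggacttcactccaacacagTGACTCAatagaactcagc

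The Cxcl10 window held 1 ISRE core match beginning 213 bases before the start. NF-kB matches began at 159, 104 and 103 bases, the last 2 overlapping, and an AP-1 match began at 74 bases. The Cxcl9 window held 1 match, an AP-1 site after the start. Of all 32851 promoter windows in the table, 3.44% held the ISRE core, 8.46% the NF-kB consensus, 8.3% the STAT site and 7.81% the AP-1 site, and 0.247% held both the ISRE core and the NF-kB consensus. A match describes letters in this window and shows no binding.

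**Figure D3:**
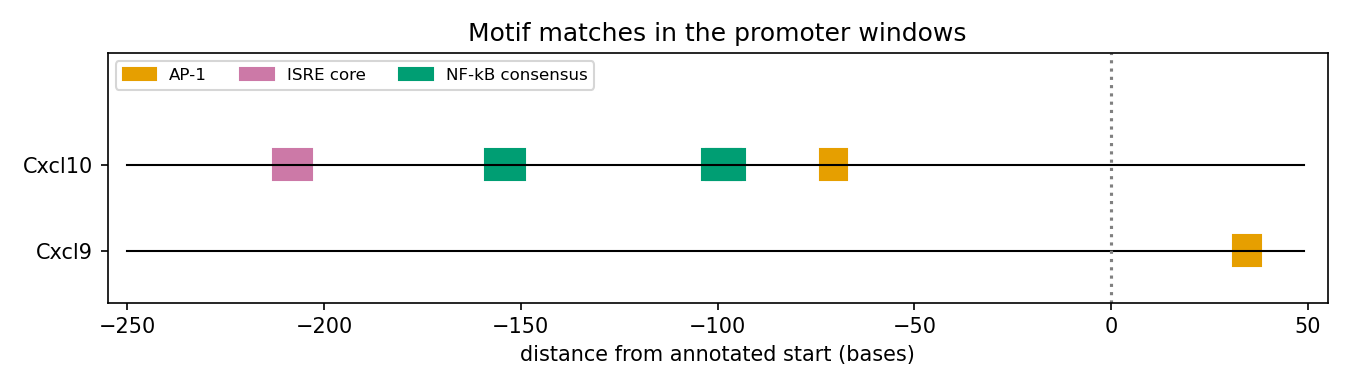
Motif matches in the promoter windows of Cxcl10 and Cxcl9, by distance from the annotated start (bases, negative before it); boxes are matches on either strand. The Cxcl10 window holds an ISRE core, NF-kB and AP-1 matches before the start, and the Cxcl9 window a single AP-1 match after it.

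Of 4 listed receptors of these chemokines, 3 were analysed, with median inductions at 4 h of 0.02 in MyD88 KO, -0.15 in TRIF KO and 0.03 in wild type, against -0.04, -0.02 and 0.01 over all genes. Cxcr3 lay between 6.82 and 6.94 on all arrays. Ccr1, a CCL5 receptor carried by macrophages themselves, fell by 0.28 at 4 h in the additive fit over the 3 genotypes (limma, adjusted p = 0.045). In the genotype-specific fit it fell by 0.46 in wild type (limma, adjusted p = 0.0271). Its values there were -0.20 in MyD88 KO and -0.24 in TRIF KO (limma, adjusted p = 0.843 and 0.549), and neither difference from wild type passed (adjusted p = 0.928 and 1). Ccr3 lay between 5.77 and 6.02 and reached log2 = 6 only on the unstimulated TRIF KO array. It thus entered the analysis only through an array where it is high. The receptor medians include Ccr3 and so rest in part on that selection. Among the decoy receptors and Dpp4, the protease that trims these chemokines, 1 of 4 was analysed: Ackr1, with inductions of -0.08, 0.06 and 0.07.

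In the TRIF branch, 4 of 8 listed genes were analysed and 1, Ikbke, which encodes IKK-epsilon, was called in each genotype. Of all genes, 1.37% were called higher in MyD88 KO, 1.29% in TRIF KO and 3.98% in wild type. Ikbke rose at 4 h by 0.95 in MyD88 KO, 0.88 in TRIF KO and 0.89 in wild type (limma, adjusted p = 0.000257, 0.000636 and 0.000114). Tbk1, the related kinase, and Irf7, an interferon-induced amplifier of interferon genes, had inductions of 0.22 and 0.28 in MyD88 KO, against 0.28 and -0.01 in TRIF KO and 0.26 and 0.35 in wild type. The transcript of interferon beta, Ifnb1, lay between 5.33 and 5.58, below the limit on every array.

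Of 7 genes of the type I interferon receptor and its STAT complex, 6 were analysed and 1, Stat2, rose in wild type, by 0.56 (limma, adjusted p = 0.00466). Its values were 0.36 in MyD88 KO and 0.14 in TRIF KO (limma, adjusted p = 0.190 and 0.813), and the differences from wild type did not pass (adjusted p = 0.946 and 0.916). Irf9, Ifnar1 and Tyk2 had inductions of 0.18, 0.29 and 0.19 in MyD88 KO, against -0.01, 0.10 and 0.04 in TRIF KO and 0.27, 0.21 and 0.18 in wild type. In the interferon gamma pathway 6 of 7 genes were analysed. For none of them did the genotype-specific fit call a difference in response between genotypes. Jak2, the kinase of the interferon gamma receptor, rose by 0.66 in TRIF KO and 0.93 in wild type (limma, adjusted p = 0.0127 and 0.000326), and stood at 0.22 in MyD88 KO (adjusted p = 0.839).

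Irf1, a factor that acts on Cxcl9 and Cxcl10 genes, had inductions of 0.54, 0.83 and 1.25 at 1 h and 0.70, 0.59 and 1.45 at 4 h in MyD88 KO, TRIF KO and wild type. Irf8 fell by 0.77 in wild type (limma, adjusted p = 0.0017). Irf8 inductions at 4 h were -0.38 in MyD88 KO, -0.34 in TRIF KO and -0.92 in wild type. Ciita, the regulator of class II genes, had inductions of 0.26, 0.29 and 0.10 in the same order. Ifng itself, named here outside the rule for named genes because Cxcl9 is known as its target, lay between 4.74 and 4.88.

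Interferon-stimulated effector genes, the antiviral targets of type I interferon, had their lowest median in TRIF KO, as Ccl5 and Cxcl10 had their lowest induction. Of 16 listed, 13 were analysed, with median inductions at 4 h of 1.05 in MyD88 KO, 0.10 in TRIF KO and 1.56 in wild type. The genotype-specific fit called 11, 2 and 11 of them higher in the same order, beside 1.37%, 1.29% and 3.98% of all genes. The genes called in MyD88 KO and in wild type include Mx1. It reached log2 = 6 only on the 4 h arrays of these genotypes (6.19 and 6.33) and read 4.71 to 5.31 on the others. Mx1 thus entered the analysis only through arrays where it is high. Ifit2 reached log2 = 6 only on the MyD88 KO arrays (6.44, 6.79 and 8.62) and the 4 h wild-type array (7.87). It read 5.36 to 5.85 on the others, so it too entered only through arrays where it is high. These counts and the medians include Mx1 and Ifit2 and so rest in part on that selection. Ifit1, which binds foreign RNA, had inductions of 2.24, 0.69 and 2.39, and Rsad2, the antiviral protein viperin, of 1.95, 0.32 and 1.56. Ifit2 had 2.18, 0.31 and 2.03. Gbp2, a guanylate-binding protein, had 1.56, 1.22 and 2.07.

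The response of 7 of these 13 was lower in TRIF KO than in wild type, beside 0.189% of all genes. That of 0 was lower in MyD88 KO than in wild type (0.269%). That of 7 was higher in MyD88 KO than in TRIF KO (0.11%), each by limma with adjusted p under the threshold. Ccl5 was called in each of these 3 comparisons. The 7 genes lower in TRIF KO than in wild type include Mx1 and Ifit2, so that count also rests in part on the selection described above. The 7 genes higher in MyD88 KO than in TRIF KO do not include Mx1 but do include Ifit2, so the same holds for that count. For Rsad2 the differences from wild type were 0.14 in MyD88 KO (limma, adjusted p = 0.980) and -1.43 in TRIF KO (adjusted p = 0.00393), beside -1.82 and -3.35 for Ccl5 and -0.46 and -2.13 for Cxcl10.

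Neutrophil-attracting CXC chemokines had their lowest median in MyD88 KO. Of 5 listed, 4 were analysed, with median inductions at 4 h of 0.55 in MyD88 KO, 1.77 in TRIF KO and 2.97 in wild type. Cxcl1 and Cxcl2, ligands of CXCR2, had 0.22 and 1.92 in MyD88 KO, against 2.95 and 2.62 in TRIF KO and 4.25 and 3.58 in wild type. Both were already up by at least 1 at 1 h in each genotype. Their differences in 4 h response between genotypes had SEs of 1.77 and 1.745 in the genotype-specific fit, which called none of these differences. Cxcl5 had -0.07, 0.92 and 2.36, but it entered the analysis only through the 4 h wild-type array (6.47), where it is high. Its other arrays read 4.02 to 5.01, below the limit, so no test of it is given. Cxcl1 read 5.11 to 5.33 on the unstimulated arrays and 5.33 on the 4 h MyD88 KO array, all below the limit. It thus entered the analysis only through LPS arrays where it is high, and its induction in MyD88 KO compares values below the limit. The medians of this list include Cxcl1 and Cxcl5 and so rest in part on that selection. Ppbp, a platelet chemokine precursor, had 0.88, 0.61 and 0.71. Averaged over the 3 times, the additive fit called Cxcl1, Cxcl2 and Ppbp lower in MyD88 KO, 3 of the 4 analysed, beside 2.68% of all genes. This count includes Cxcl1 with its levels below the limit. The level of Cxcl2 in MyD88 KO differed from wild type by -1.84 before LPS and by -3.49 at 4 h.

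Of 11 other CC chemokines 10 were analysed, with medians of -0.02, 0.13 and 0.26. Ccl3 and Ccl4, the macrophage inflammatory proteins, had inductions of -0.34 and 0.09 in MyD88 KO, against 1.34 and 0.64 in TRIF KO and 2.80 and 1.92 in wild type. Their responses in MyD88 KO were below wild type by -2.67 and -1.64 (limma, adjusted p = 0.0361 for each). In TRIF KO the differences of -1.23 and -1.11 did not pass (limma, adjusted p = 0.916 and 0.374). Ccl9 had 0.50, 0.57 and 0.67, and Ccl7, a monocyte chemokine, -0.55, 0.04 and 0.34.

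Of 5 NF-kB subunits 4 were analysed, with median inductions of 0.85 in MyD88 KO, 0.72 in TRIF KO and 1.12 in wild type. The genotype-specific fit called 2, 2 and 4 of them higher, beside 1.37%, 1.29% and 3.98% of all genes, and no difference in response between genotypes. Averaged over the 3 times, the additive fit called 3 of the 4 lower in MyD88 KO (Nfkb2, Rel and Relb), beside 2.68% of all genes. Before LPS the differences of MyD88 KO from wild type were -0.36 for Nfkb2 and -0.72 for Relb. Inductions at 4 h follow in the order MyD88 KO, TRIF KO and wild type. Nfkb2 had 1.25, 1.04 and 1.61, Relb 1.54, 1.06 and 1.25, Rela 0.45, 0.41 and 0.68, and Rel 0.07, 0.33 and 0.98.

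**Figure D4:**
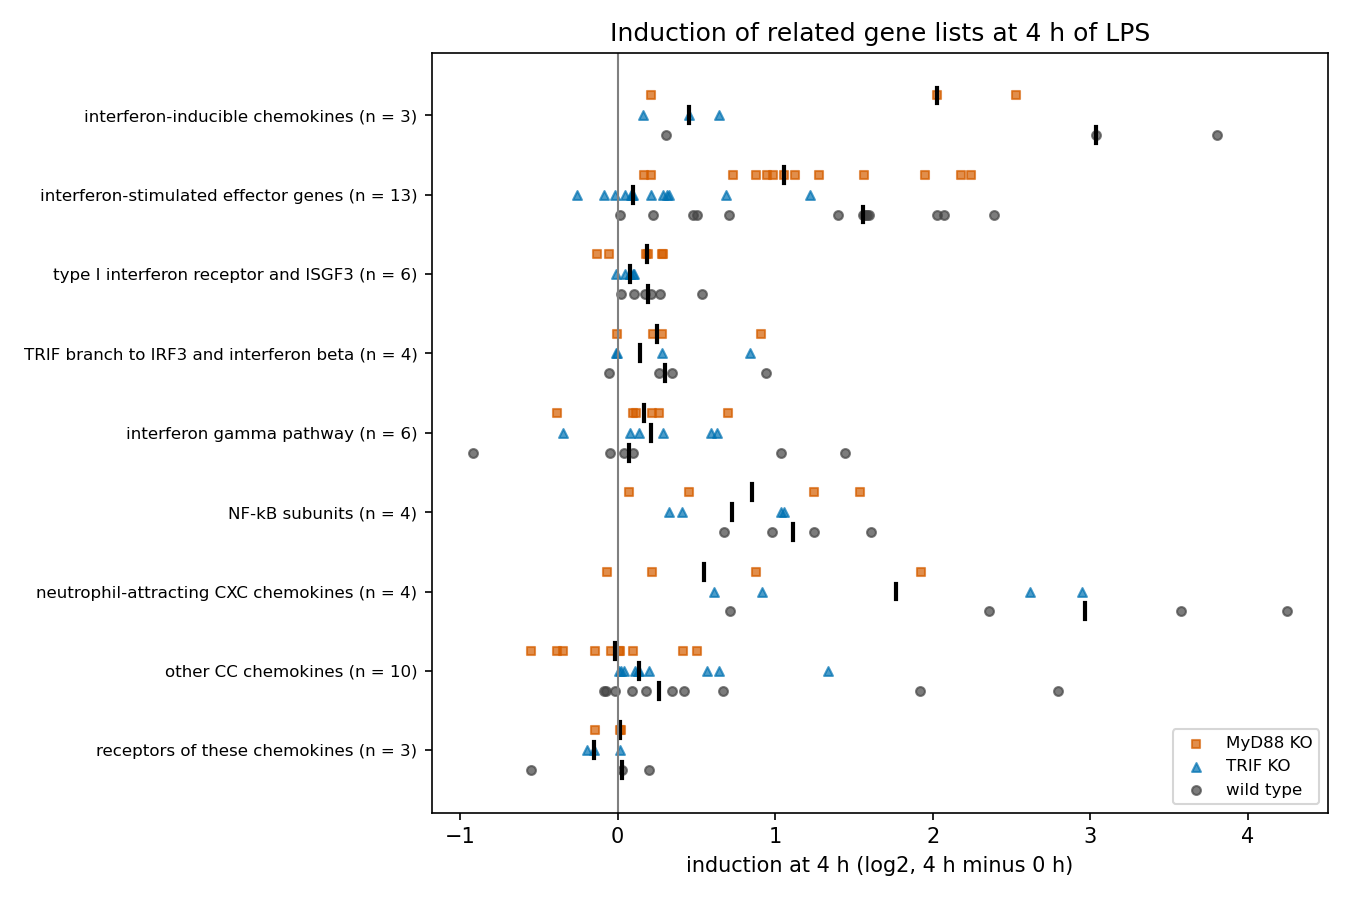
Induction at 4 h (log2, 4 h minus 0 h) of each analysed gene in 9 lists, in MyD88 KO (squares), TRIF KO (triangles) and wild type (circles); black bars are medians. The interferon-inducible chemokines and interferon-stimulated effector genes have their lowest medians in TRIF KO (0.46 and 0.10), the neutrophil-attracting CXC chemokines theirs in MyD88 KO (0.55).

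**Figure D5:**
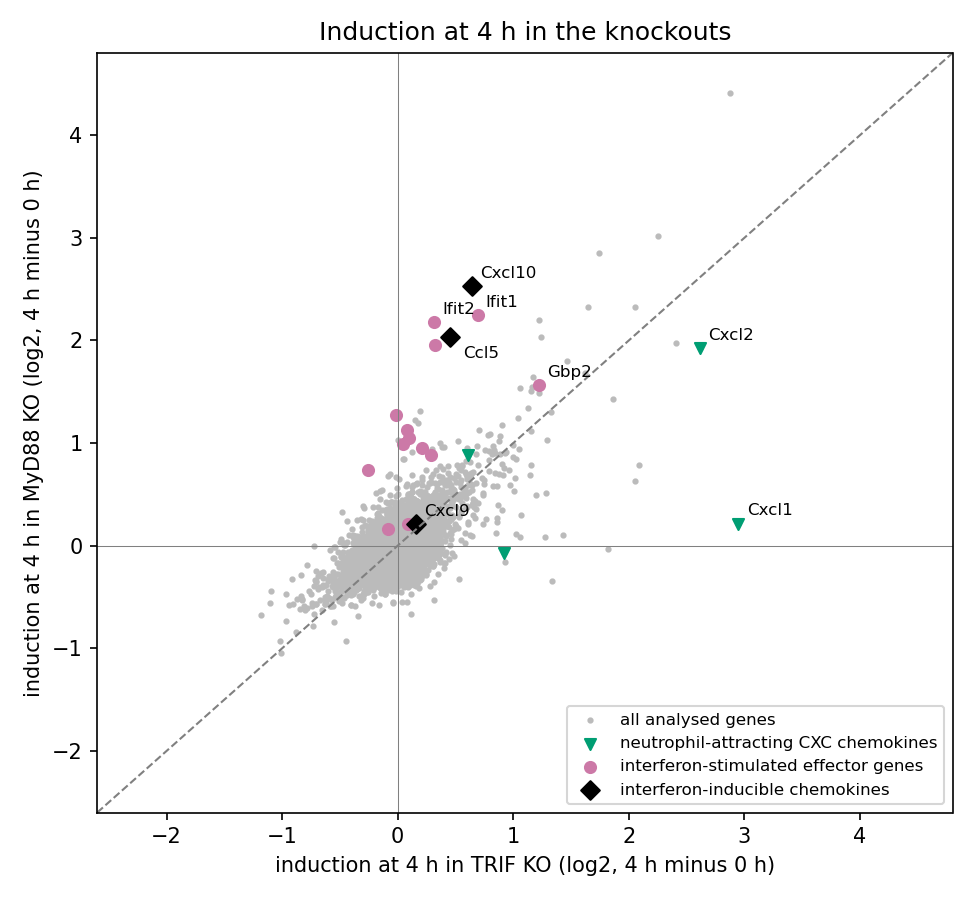
Induction at 4 h (log2) in MyD88 KO against that in TRIF KO for the 10032 analysed genes (grey), with 3 lists marked and the dashed line showing equal values; each knockout is set against its own unstimulated array. Ccl5 (2.03 against 0.46) and Cxcl10 (2.53 against 0.64) lie above the line beside Ifit1 and Ifit2, and Cxcl1 (0.22 against 2.95) lies below it. Ifit2 was below log2 = 6 on every TRIF KO array.

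Genes with the most similar pattern were found by the Pearson correlation of log2 values over the 9 arrays, among 366 or 367 genes with a range of at least 1. The points share their arrays and normalization, so these are descriptions. Ccl5 and Cxcl10 correlated at 0.94, Cxcl9 with Cxcl10 at 0.86 and with Ccl5 at 0.74. The 5 genes most like Ccl5 were Peli1 (0.98), a ubiquitin ligase of Toll-like receptor signalling, Gbp6 (0.97), which reached log2 = 6 only on the 4 h wild-type array (6.03), Ifih1 (0.96), the RNA sensor MDA5, Oasl1 (0.95) and Ifi47 (0.95). Peli1 had inductions at 4 h of 1.03 in MyD88 KO, 0.00 in TRIF KO and 1.19 in wild type.

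Those most like Cxcl10 were Parp14 (0.98), Ifi47 (0.97), Gm20559 (0.96), Gbp6 (0.96) and Ifih1 (0.96). Parp14, an ADP-ribosyltransferase, had inductions of 1.19, 0.17 and 1.30. For Cxcl9 they were Gm20559 (0.93), Nrp2 (0.92), Slc7a2 (0.91), Oaf (0.90) and Ptgir (0.90). Among these, Slc7a2, an arginine transporter, had inductions at 4 h of 0.86 in MyD88 KO, 0.995 in TRIF KO and 2.10 in wild type. The others had 0.59 to 0.83 in MyD88 KO, 0.41 to 0.59 in TRIF KO and 0.62 to 1.26 in wild type.

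Markers of other cells differed between genotypes in places. The summed linear level of the 7 fibroblast and mesothelial markers, 6 of them analysed, was 980.0 to 1051 in MyD88 KO, 897 to 1046 in TRIF KO and 705 to 733 in wild type, with Msln below log2 = 6 on every array. That of the 5 measured B cell markers was 796 to 956, 784 to 839.8 and 863 to 1054, with Pax5 below the limit on every array. Averaged over the 3 times, the additive fit called 2 of the 4 analysed B cell markers, Cd79a and Ms4a1, lower in each knockout. Of all genes, 2.68% were called lower in MyD88 KO and 0.419% in TRIF KO. The 4 measured dendritic cell markers summed to 432 to 433, 424 to 467 and 427 to 484, with Xcr1 and Ccr7 below the limit throughout. The 5 measured neutrophil markers summed to 803 to 818, 823 to 839.8 and 861 to 963, with S100a9 below it. Their part in the differences between genotypes was not tested.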

How the data were processed

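Biotin-labelled cRNA from total RNA was measured on Affymetrix arrays, per the labels' protocols. The authors deposited log2 values per probe set, and the submitters' processing notes name RMA. Its version, and whether the 9 arrays went through it jointly, are not stated there. RMA's background correction compresses differences of dim probe sets. The 9 columns held 22690 probe sets without gaps and were used as deposited.

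Probe sets were named from the platform annotation and updated by gene identifier through RefSeq (GRCm38.p6): 20393 had 1 symbol, of which 20364 matched, 691 several and 1606 none. A gene took its probe set with the highest mean (4958 genes had several). Genes reaching log2 = 6 on 1 array were analysed.

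Differences of log2 values and limma 3.58.1 fits (R 4.3.3; lmFit, eBayes without trend) were computed over 10032 genes. The additive fit of genotype and time had 4 residual and 8.39 prior degrees of freedom, and the genotype-specific fit 3 and 10.3. Both were tested on simulated data. Alternatives changed the filter, floor, centring, probe set rule, prior and the arrays used. The members, lists and the rule for named genes (the chemokines, up to 4 genes per list by size at 4 h, and the 5 most similar genes per chemokine) were chosen with earlier results of these data known. With 1 array per group no exact test between 2 groups was possible. Promoters were searched with Python 3.11.15.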

Additional observations from a re-analysis of the deposited data

Results flagged for a closer look

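The 4 h response of Ccl5 differed between every pair of genotypes in the test of the difference itself (limma, genotype-specific fit, Benjamini-Hochberg adjusted over 10032 genes). MyD88 KO minus wild type was -1.82 (adjusted p = 7.29e-05), TRIF KO minus wild type was -3.35 (adjusted p = 6.29e-08), and MyD88 KO minus TRIF KO was 1.53 (adjusted p = 0.00113). For Cxcl10, TRIF KO minus wild type was -2.13 (limma, adjusted p = 0.00469). Each estimate rests on 1 array per genotype at 4 h. Groups of 1 array leave no outlier test within a group.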

How the results depend on the processing

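Differences of single arrays for Ccl5, Cxcl9 and Cxcl10 moved by less than 0.18, the spread of unstimulated arrays over genes, under a floor of log2 = 6, centring on reference transcripts and the mean over probe sets. For Cxcl11, below the floor, the 1 h induction in TRIF KO, the 4 h level and the 4 h induction of TRIF KO minus wild type became 0.0 by construction. The genotype-specific differences of Ccl5 from wild type and of TRIF KO Cxcl10 from wild type passed without any 1 early array. Raising low values to log2 = 6 cut the prior degrees of freedom of that fit to 2.04, and with it the Cxcl10 responses in MyD88 KO (2.29, adjusted p = 0.0876) and of TRIF KO minus wild type (-2.13, 0.764) and the Ccl5 responses in TRIF KO (0.44, 0.105) and of MyD88 KO minus TRIF KO (1.53, 0.0621) missed the threshold (limma). The TRIF KO Ccl5 response also missed it after centring (0.47, adjusted p = 0.0578). Cxcl10 in MyD88 KO minus TRIF KO passed without filter and with a trend (1.67 each; limma, adjusted p = 0.0407 and 0.0494), and ranged from 1.43 to 1.91 without single arrays.

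In the additive fit at 4 h, Ccl5 missed the threshold with the floor (2.10, adjusted p = 0.0556), without the wild-type arrays (1.24, 0.061) and without a genotype term (2.10, 0.145), and Cxcl9 with a trend (0.23), without MyD88 KO (0.23), TRIF KO (0.26) or wild type (0.19), and without a genotype term (0.23); the filter at a mean of log2 = 7 leaves Cxcl9 out. Leaving out single arrays gave 1.23 to 2.91 for Ccl5 and 0.19 to 0.27 for Cxcl9. At 1 h, where none of the 3 chemokines was called, Cxcl9 turned sign after centring (0.0139) and without MyD88 KO (0.0189), and single arrays gave -0.0416 to 0.0178, with -0.37 to 0.50 for Ccl5. Averaged over times, MyD88 KO ranged from -1.08 to 0.22 for Ccl5 and -0.36 to 0.36 for Cxcl10, uncalled. The Ccl5 response in TRIF KO ranged from 0.43 to 0.46.

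Counts of genes called moved more. At 1 h, 29 became 10 with the floor, 46, 19 and 12 without MyD88 KO, TRIF KO and wild type, 1 without a genotype term, and 7 to 43 without single arrays. At 4 h, 463 became 289 without wild type and 150 without the term, and 283 to 465. Lower in MyD88 KO were 178 with the floor (main 269) and 155 to 291, and in TRIF KO 24 (main 42) and 22 to 66. The floor left 258 of wild type's 399, 27 of MyD88 KO's 137 (75 to 156) and 15 of TRIF KO's 129 (65 to 156). Lower in MyD88 KO than wild type were 27, then 5 with the floor, 7 at a mean of log2 = 7, 12 centred, 15 over probe sets, and 8 to 23. For TRIF KO 19 became 2 and 12 with the floor and that filter. MyD88 KO over TRIF KO had 11, then 0, 5 and 7 with the floor, filter and centring, and 5 to 9. The causes were not tested. No paired analysis by replicate number was possible because each group had 1 array; the additive fit does compare times within genotype, and its values without the genotype term are given above. Signal near the floor limits Cxcl9 and Cxcl11.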

Other observations

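On chromosome 5, RefSeq places Cxcl9, Cxcl10 and Cxcl11 side by side, and the span of Art3, a member of the ADP-ribosyltransferase family, encloses Cxcl10 and Cxcl11. Art3 had a mean level of 3.51, below the limit, with inductions at 4 h of -0.06 in MyD88 KO, 0.12 in TRIF KO and 0.40 in wild type. The analysed neighbours Naaa, Sdad1, Nup54 and Scarb2 had inductions between -0.24 and 0.21. Near Ccl5 on chromosome 11 lie the chemokine genes Ccl9, with 0.50, 0.57 and 0.67 in the same order, and Ccl6, with 0.02, 0.02 and -0.07.

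Among the interferon-stimulated effector genes, 13 of 16 had a promoter window, and 9 of these held the ISRE core that the Cxcl10 window also holds. Of all 32851 promoter windows, 3.44% held it. A gene counted if any of its windows held the core, whereas this share is over single windows, so they are unlike measures. Of the 11 genes most similar to a chemokine member, 8 had a window and 1, Ifih1, held the ISRE core. These are counts of letters in a window and show no binding.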
